A study of Mus musculus with 5 samples.

Results

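The RNA of T helper type 1 (Th1) cells was set against that of T helper type 2 (Th2) cells, over every transcript cluster of the array that carries 1 gene symbol. A transcript cluster is the set of probes that the array's design assigns to 1 transcribed locus. Of the 41345 transcript clusters in the table, 23525 have 1 symbol, and these stand for 22184 genes. The level of a transcript cluster is its log2 RMA value (background-corrected, quantile-normalised and summarised over its probes), so a difference of 1 between arrays is 2-fold. There is 1 Affymetrix Mouse Gene 2.0 ST array for each culture, 5 arrays in all. With 1 array per culture there is no replicate error and no test, and what follows are the values of these arrays, their differences (Th1 minus Th2) and counts.

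Both cell types were started from naive CD4+ CD62L+ T cells of TRP-1 mice, whose T cells carry a transgenic receptor (Tg(Tcra,Tcrb)9Rest) for the pigment protein tyrosinase-related protein 1. These mice also carry the Rag1 tm1Mom mutation, so that they make no B cells and no T cells with other receptors, and the Tyrp1 B-w allele. The T cells came from spleens of mice 6 to 8 weeks old and were cultured for 3 days with 5 µg/ml TRP-1 peptide and irradiated, T cell-depleted splenic antigen-presenting cells (APCs) of C57BL/6 mice. The Th1 medium held IL-12 at 5 ng/ml with IL-4-blocking antibody at 10 µg/ml, and the Th2 medium IL-4 at 10 ng/ml with IFN-γ-blocking antibody at 10 µg/ml. Both media held IL-2 at 100 U/ml. IL-12, IL-4 and both antibodies thus changed together between the 2 arrays, and their parts in a difference cannot be told apart. The other 3 arrays hold Th9 cells, which had the same IL-4 and anti-IFN-γ as the Th2 medium but no added IL-2. To these the classic Th9 IL-4+TGF-β medium added TGF-β (1 ng/ml), the Th9 IL-4+IL-1β medium IL-1β (10 ng/ml), and the Th9 IL-4+TGF-β+IL-1β medium both. Their levels are given beside those of Th1 and Th2 cells where they help, in the order in which they are named here. The methods name no sort between culture and lysis, so RNA of the APCs may be among that measured. The T cell donors make no B cells, yet genes of B cells gave a bright signal. The B cell receptor gene *Cd79b* was at 10.56 on the Th1 array and 11.78 on the Th2 array, and the immunoglobulin segment *Igkv9-120* at 11.36 and 12.59. A level "in Th1 cells" or "in Th2 cells" is thus that of the whole culture, and the share of APC RNA in it was not tested.

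IL-12 acts through STAT4 on naive CD4+ T cells and leads to the transcription factor T-bet (*Tbx21*) and to IFN-γ, the main product of Th1 cells. IFN-γ in turn acts on nearly every cell type, and it induces GTPases that attack intracellular microbes, chemokines that draw in CXCR3-bearing cells, and antigen presentation. IL-4 acts through STAT6 and leads to GATA3 and to the Th2 cytokines IL-4, IL-5 and IL-13, and in macrophages and dendritic cells it induces a separate set of genes such as *Chil3*, *Ccl17* and *Ccl22*.

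Over all 22184 genes, 178 were at least 2-fold higher in Th1 cells (0.802%) and 275 at least 2-fold lower (1.24%). These shares are the base against which each 2-fold count of a gene list or family below is to be read. Counted over transcript clusters, 183 were higher (0.778%) and 286 lower (1.22%). At 1.5-fold, 566 genes were higher (2.55%) and 730 lower (3.29%). The differences reached further on the lower side. At least 4-fold differences were seen for 34 genes higher and 56 lower in Th1 cells, and at least 8-fold differences for 9 higher and 15 lower. The median difference over all genes was 0.01. Olfactory receptor genes, which serve as a gauge of dim signal, had a median difference of -0.01 with an SD of 0.25 over 1109 transcript clusters, of which 1 was 2-fold higher and 0 were 2-fold lower. The medians of the 5 arrays lay between 5.41 and 5.44. Of the genes that passed 2-fold, 39 of the 178 higher ones had a Th2 level below the median of the Th2 array, and 55 of the 275 lower ones a Th1 level below that of the Th1 array, so their differences run from a dim signal and can be understated. At the 2-fold limit, among genes with at least 1 level above the array median and gene models left out, *Gimap7* (difference 1.0006) was the last gene counted as higher and *Bhlhe40* (0.9973) the first left out. *Cpt1a* (-1.0007) was the last counted as lower and *Ripk3* (-0.9994) the first left out.

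**Figure D1:**
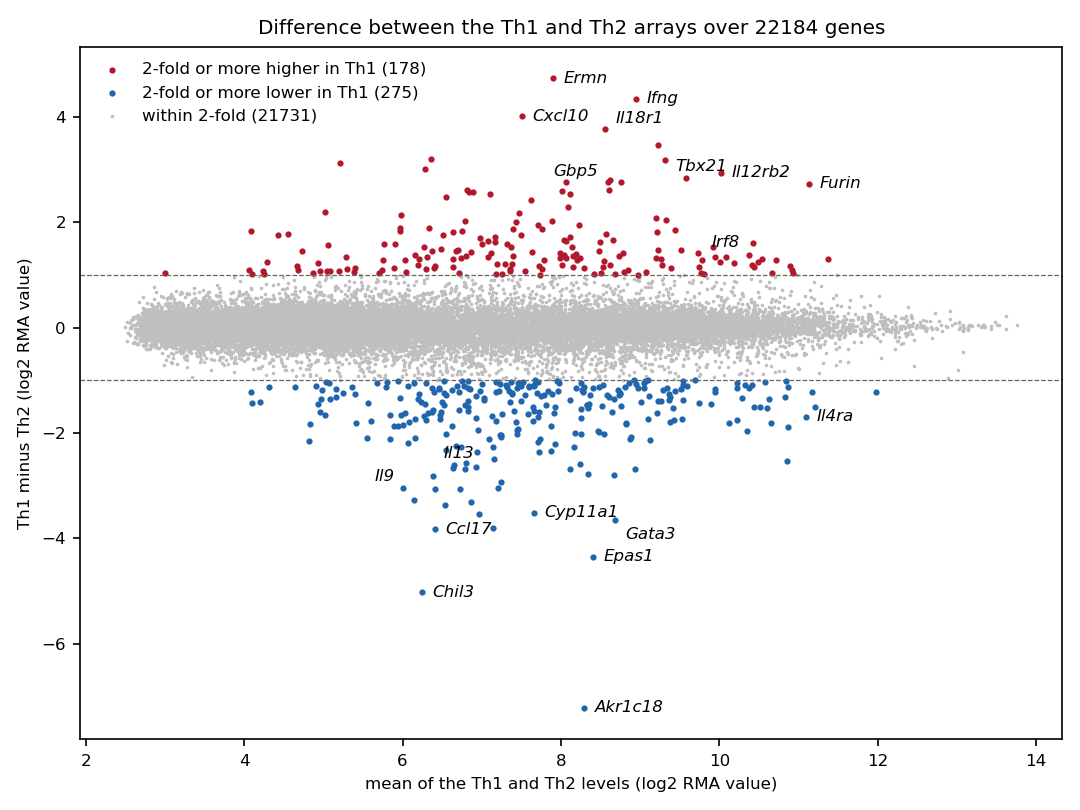
Difference between the Th1 and the Th2 array (vertical axis, log2 RMA value) against the mean level of both arrays (horizontal axis, log2 RMA value), 1 point per gene for 22184 genes, with red points at least 2-fold higher in Th1 cells, blue points at least 2-fold lower and dashed lines at 2-fold. The points past the lines spread over the middle and upper range of levels, and Akr1c18 stands alone at -7.21.

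The Th1 program itself was led by its cytokine. *Ifng* was at 11.11 in Th1 cells and 6.78 in Th2 cells, 20.1-fold higher in Th1 cells, and the 3 Th9 arrays were at 6.54, 6.68 and 6.74, close to the Th2 array. *Tbx21*, the gene of the Th1 master regulator T-bet, was at 10.90 in Th1 cells and 7.73 in Th2 cells (9.03-fold). The receptors that keep a Th1 cell responsive to IL-12 and IL-18 were next to these. *Il12rb2*, the inducible chain of the IL-12 receptor, was at 11.50 in Th1 cells and 8.56 in Th2 cells (7.68-fold). *Il18r1*, the binding chain of the IL-18 receptor, was at 10.44 in Th1 cells and 6.68 in Th2 cells (13.5-fold), and *Il18rap*, its signalling chain, at 9.24 in Th1 cells and 6.94 in Th2 cells (4.91-fold). In all of these the Th1 array was the highest of the 5. *Il12rb1*, the constant chain of the IL-12 receptor, was at 9.66 in Th1 cells and 9.35 in Th2 cells, and *Stat4*, which carries the IL-12 signal, at 10.92 in Th1 cells and 10.85 in Th2 cells, both within 1.5-fold.

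Of the 24 measured Th1 lineage genes, 10 were at least 2-fold higher in Th1 cells and 1 at least 2-fold lower, with a median difference of 0.96 against 0.01 over all genes. *Furin*, a proprotein convertase that IL-12 induces in T cells and a member of the IL-12 list, was at 12.50 in Th1 cells and 9.77 in Th2 cells (6.62-fold). *Cxcr6*, a homing receptor of effector T cells, was at 8.37 in Th1 cells and 6.62 in Th2 cells (3.37-fold), *Ly6c2* at 10.24 in Th1 cells and 8.78 in Th2 cells (2.76-fold) and *Nkg7*, a protein of cytotoxic granules, at 11.35 in Th1 cells and 10.07 in Th2 cells (2.44-fold). *Lta*, the gene of lymphotoxin α, had a difference of 1.18 and *Fasl*, the death ligand, of 1.02. A second tier lay between 1.5-fold and 2-fold. It held *Bhlhe40* (0.997), *Cxcr3* (0.98), *Hlx* (0.94), *Ccl4* (0.85) and *Runx3* (0.83), the last of these the partner of T-bet at the *Ifng* locus. *Ccl5* (0.49), *Ccl3* (0.46), *Xcl1* (0.25), *Havcr2* (0.23), *Gzmb* (0.14), *Stat4* (0.07) and *Twist1* (0.06) were within 1.5-fold, as was *Id2* (-0.52). *Eomes*, a T-box factor related to T-bet that also marks NK cells, went the other way, at 7.62 in Th1 cells and 8.77 in Th2 cells.

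**Figure D2:**
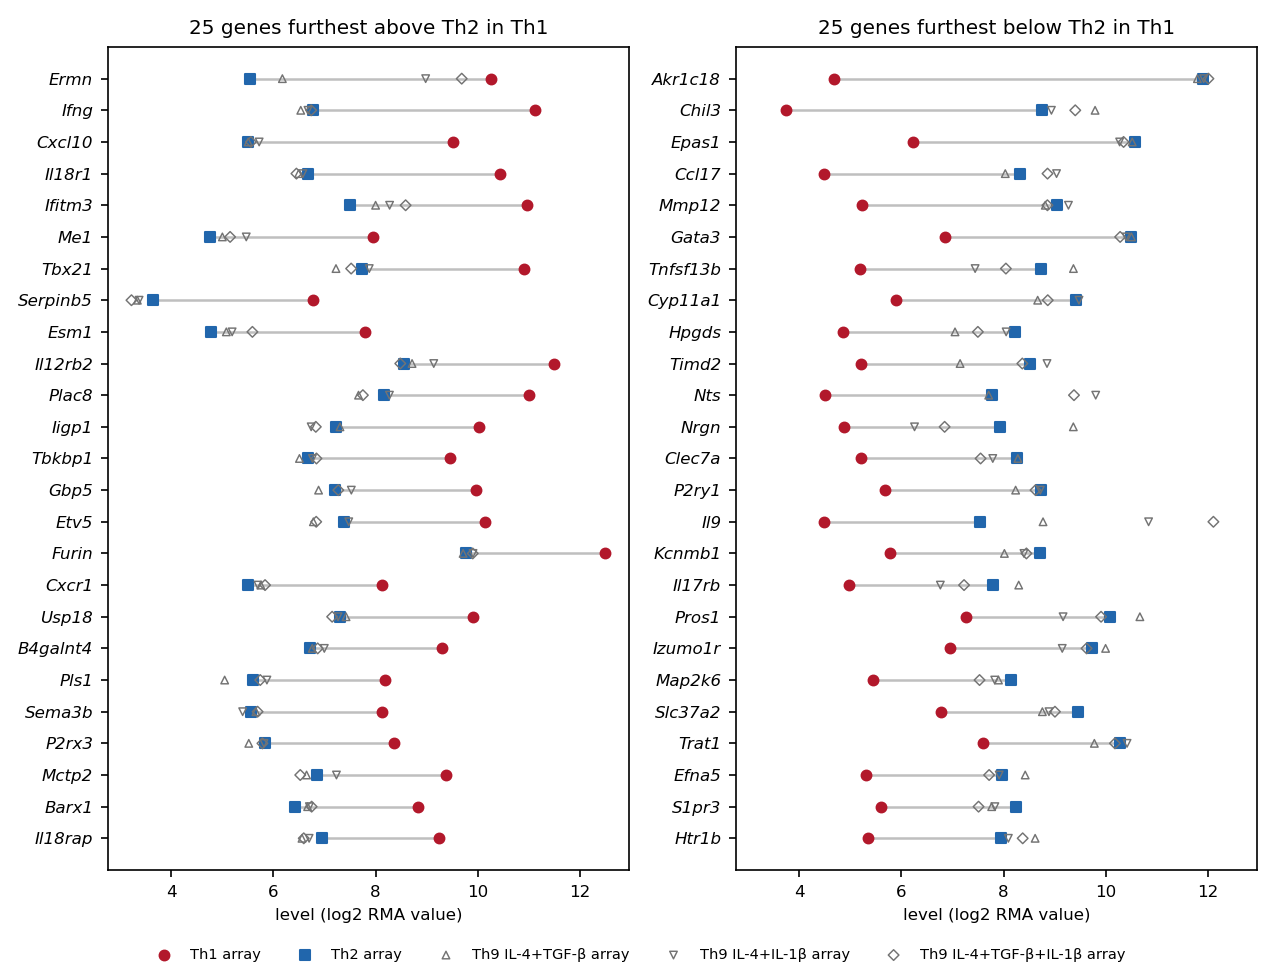
Level (horizontal axis, log2 RMA value) of the 25 genes furthest above Th2 in Th1 cells (left panel) and the 25 furthest below (right panel), with 1 red circle for the Th1 array, 1 blue square for the Th2 array, open symbols for the 3 Th9 arrays and a grey bar for the difference. For Ifng, Tbx21 and Furin the Th9 symbols lie near the Th2 square, whereas Ermn and Il9 spread over the Th9 arrays.

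GTPases that IFN-γ is known to induce had the highest median difference of the 43 gene lists. Among 15 measured IFN-γ-inducible GTPases, 10 were at least 2-fold higher in Th1 cells and 0 lower, against 0.802% higher over all genes. Their median difference was 1.29. *Iigp1*, an immunity-related GTPase that acts on vacuoles of parasites, was at 10.03 in Th1 cells and 7.22 in Th2 cells (6.99-fold), and *Gbp5*, a guanylate-binding protein, at 9.97 in Th1 cells and 7.21 in Th2 cells (6.79-fold). *Gbp3* (1.87), *Gbp10* (1.85), *Gbp7* (1.60), *Igtp* (1.30), *Irgm1* (1.29), *Gbp4* (1.13) and *Irgm2* (1.08) followed, and *F830016B08Rik*, which the list holds as a GTPase gene, was at 5.85 in Th1 cells and 4.28 in Th2 cells. *Igtp* was bright on both arrays, at 12.03 in Th1 cells and 10.73 in Th2 cells. *Gbp11* (0.94) lay between 1.5-fold and 2-fold, and *Gbp2b* (0.55), *Gbp9* (0.38), *Gbp8* (0.37) and *Gbp6* (-0.03) were within 1.5-fold. These GTPase genes are close in sequence to one another, and probes that they may share were not examined here. The median level of the list was 9.39 in Th1 cells and 7.56 in Th2 cells, so most of these genes had a signal above the array median in Th2 cells too.

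The 3 chemokines that bind CXCR3 were higher together. *Cxcl10* was at 9.51 in Th1 cells and 5.50 in Th2 cells (16.1-fold), *Cxcl11* at 7.05 in Th1 cells and 4.91 in Th2 cells (difference 2.14) and *Cxcl9* at 6.91 in Th1 cells and 5.03 in Th2 cells (3.68-fold). For *Cxcl10* the Th2 and Th9 arrays lay close to the array medians, and the Th1 array stood far above. Type I interferon-stimulated genes moved less, with 7 of 30 at least 2-fold higher, 0 lower and a median difference of 0.56. The count moved with the scale, as 3 of the 30 were 2-fold higher after log2(value + 16) and 5 after centring the arrays on the T cell identity genes. They were led by *Usp18*, which removes ISG15 from proteins, at 9.90 in Th1 cells and 7.30 in Th2 cells (6.08-fold), and by *Oasl2* (2.02), *Ifi204* (1.84) and *Zbp1*, a sensor of Z-form nucleic acid (1.41). Of these, *Ifi204* was below the array median on both arrays, at 5.01 in Th1 cells and 3.17 in Th2 cells. *Ifit1* (1.14), *Isg15* (1.11) and *Oasl1* (1.04) also passed 2-fold, whereas *Rsad2* (0.52), *Irf7* (0.66) and *Mx1* (0.33) did not. Of 17 MHC class I genes, all 17 had a difference above 0 on the deposited scale and 12 after centring the arrays on the T cell identity genes, which lowers every difference by 0.11. *Nlrc5*, the transactivator of MHC class I genes, was the only member past 2-fold, at 9.18 in Th1 cells and 7.92 in Th2 cells. *Psmb9* (0.68), *H2-T24* (0.59) and *Tap1* (0.58) came next, and *B2m* and *H2-K1*, already among the brightest signals, differed by 0.05 and 0.04.

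Within the IL-12 and IFN-γ pathways the direction was split. In Th1 cells, 9 of 19 measured members passed 2-fold on the higher side and 2 on the lower side. The factors that act below the IFN-γ receptor were higher, with *Irf1* at 9.92 in Th1 cells and 8.62 in Th2 cells and *Irf8* at 11.06 in Th1 cells and 9.68 in Th2 cells. The stress proteins *Gadd45b* (1.03) and *Gadd45g* (1.02), which amplify IFN-γ production in Th1 cells, just passed 2-fold. The signalling chain of the IFN-γ receptor did the opposite. *Ifngr2* was at 8.55 in Th1 cells and 10.30 in Th2 cells, 3.37-fold lower in Th1 cells, with 10.25, 10.04 and 10.08 in the Th9 arrays, and the kinase *Jak2* that binds to it was at 9.64 in Th1 cells and 10.79 in Th2 cells (2.22-fold lower). The ligand-binding chain *Ifngr1* was not lower, with a difference of 0.50, and *Socs1*, an inhibitor of the pathway, differed by -0.29.

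Promoter sequence was looked at for this group because its members moved together. The windows are those of RefSeq on build GRCm38.p6, from 250 bases before to 50 bases after each annotated start, and they were found for 139 of the 178 higher genes and 207 of the 275 lower ones. The interferon-stimulated response element (ISRE), searched as GAAANNGAAA on both strands, was in 21 of 181 windows of the genes at least 2-fold higher in Th1 cells (11.6%), in 10 of 283 windows of those at least 2-fold lower (3.53%) and in 681 of 20615 windows of all genes measured (3.30%). The GAS letters TTCNNNGAA, the form that STAT dimers bind, were in 13.8% of the windows of higher genes, 5.30% of those of lower genes and 7.89% of all. Of 7 windows, from 6 of the GTPase genes that passed 2-fold, 6 held the ISRE letters and 4 the GAS letters. A match of letters is a description of the window, not a bound site. The 250 bases before the start are shown for 4 GTPase genes, *Cxcl10* and *Ifng*, 5′ to 3′ in the direction of the gene, with ISRE letters in capitals in *Irgm1* and *Cxcl10*, GAS letters in *Ifng* and both in the other 3:
Gbp5: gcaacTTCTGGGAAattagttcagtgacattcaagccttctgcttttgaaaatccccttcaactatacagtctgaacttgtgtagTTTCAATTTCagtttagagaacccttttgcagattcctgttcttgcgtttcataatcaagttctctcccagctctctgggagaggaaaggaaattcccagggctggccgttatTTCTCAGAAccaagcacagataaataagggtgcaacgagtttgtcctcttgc
Gbp7: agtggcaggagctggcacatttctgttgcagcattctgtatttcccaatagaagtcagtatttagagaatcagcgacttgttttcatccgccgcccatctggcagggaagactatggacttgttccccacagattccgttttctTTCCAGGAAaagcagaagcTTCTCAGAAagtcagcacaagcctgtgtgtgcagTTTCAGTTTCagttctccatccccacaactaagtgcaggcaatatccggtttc
Igtp: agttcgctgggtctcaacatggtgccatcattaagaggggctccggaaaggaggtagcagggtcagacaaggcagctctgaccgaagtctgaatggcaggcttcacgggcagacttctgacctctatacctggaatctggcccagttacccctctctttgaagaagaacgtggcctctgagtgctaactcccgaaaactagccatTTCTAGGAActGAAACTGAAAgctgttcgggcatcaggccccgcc
Irgm1: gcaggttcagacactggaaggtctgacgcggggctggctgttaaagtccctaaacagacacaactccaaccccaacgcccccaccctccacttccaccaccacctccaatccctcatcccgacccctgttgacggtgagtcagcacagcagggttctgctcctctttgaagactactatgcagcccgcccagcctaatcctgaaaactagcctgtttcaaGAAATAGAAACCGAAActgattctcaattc
Cxcl10: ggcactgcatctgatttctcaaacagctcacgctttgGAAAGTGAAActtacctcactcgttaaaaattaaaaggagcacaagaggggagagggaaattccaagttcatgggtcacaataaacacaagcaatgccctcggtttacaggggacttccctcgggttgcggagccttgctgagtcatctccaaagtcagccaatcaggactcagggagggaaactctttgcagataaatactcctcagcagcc
Ifng: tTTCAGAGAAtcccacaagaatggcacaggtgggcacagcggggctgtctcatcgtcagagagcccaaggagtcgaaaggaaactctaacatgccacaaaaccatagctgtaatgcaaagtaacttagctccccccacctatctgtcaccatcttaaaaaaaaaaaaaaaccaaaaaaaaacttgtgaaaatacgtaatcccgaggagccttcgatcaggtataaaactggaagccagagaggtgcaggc
In *Igtp* the GAS letters end 37 bases and the ISRE letters begin 34 bases before the start, side by side. *Gbp7* has its ISRE letters from 53 to 44 bases before the start with 2 GAS matches further out, and *Gbp5* has GAS letters from 52 to 44 bases before the start and ISRE letters from 165 to 156. The 2 ISRE matches of *Irgm1* overlap each other between 30 and 15 bases before the start. The match of *Cxcl10* lies from 213 to 204 bases before the start. The GAS letters of *Ifng* stand at the far end of the window, from 249 to 241 bases before the start. The stretches shown are chr3:142496684-142496933 (+ strand, *Gbp5*), chr3:142530086-142530335 (+ strand, *Gbp7*), chr11:58199306-58199555 (+ strand, *Igtp*), chr11:48871421-48871670 (- strand, *Irgm1*), chr5:92348890-92349139 (- strand, *Cxcl10*) and chr10:118440796-118441045 (+ strand, *Ifng*).

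Th2 lineage genes lay on the other side. Of 22 measured, 15 were at least 2-fold lower in Th1 cells and 0 higher, against 1.24% lower over all genes. Their median difference was -1.54. *Gata3*, the Th2 master regulator, was at 6.85 in Th1 cells and 10.50 in Th2 cells (12.5-fold lower), with 10.50, 10.40 and 10.28 in the Th9 arrays. A second transcript cluster of *Gata3*, at 6.01 in Th1 cells and 6.24 in Th2 cells, differed by -0.23. *Epas1*, which encodes the hypoxia-inducible factor HIF-2α, was lower still, at 6.23 in Th1 cells and 10.58 in Th2 cells (20.4-fold lower). In both the Th1 array stood apart from 4 arrays that lay within 1.5-fold of each other.

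The Th2 cytokines were lower in Th1 cells from modest levels. *Il13* was at 5.76 in Th1 cells and 8.11 in Th2 cells (5.12-fold lower) and *Il4* at 5.19 in Th1 cells and 6.98 in Th2 cells (3.46-fold lower). *Il5* was below the array medians in both, at 4.76 in Th1 cells and 5.12 in Th2 cells, as were *Il31* (difference -0.05) and *Il6* (-0.11). The Th9 arrays show how far *Il13* can vary among cells given IL-4, with levels of 6.37, 11.07 and 10.06. *Il9* was at 4.49 in Th1 cells and 7.53 in Th2 cells (8.21-fold lower), against 8.77, 10.84 and 12.11 in the Th9 arrays. *Il24* was at 6.63 in Th1 cells and 8.80 in Th2 cells (4.48-fold lower) and *Il10*, a cytokine made by several lineages, was close on both arrays, at 8.75 in Th1 cells and 8.68 in Th2 cells.

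Receptors and regulators of Th2 cells followed the same direction. *Il17rb*, a chain of the IL-25 receptor, was at 4.97 in Th1 cells and 7.79 in Th2 cells (7.04-fold lower) and *Ccr8*, a Th2 and regulatory T cell homing receptor, at 6.95 in Th1 cells and 9.54 in Th2 cells (6.01-fold lower). *Il4ra*, the IL-4 receptor chain that IL-4 itself induces, was at 10.25 in Th1 cells and 11.95 in Th2 cells (3.24-fold lower). *Bhlhe41* (-2.04), *Rnf128*, an E3 ligase also known as GRAIL (-1.66), *Cd200r1* (-1.62), *Ecm1* (-1.46), *Nfil3* (-1.38), *Ccr4* (-1.05) and *Pparg* (-1.02) made up the rest past 2-fold. *Gfi1* (-0.41) and *Crem* (0.16) were within 1.5-fold. *Maf*, a factor that binds the *Il4* promoter, was not lower in Th1 cells, at 8.29 in Th1 cells and 7.43 in Th2 cells.

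Genes that IL-4 and STAT6 are known to induce gave 10 of 23 at least 2-fold lower in Th1 cells and 0 higher, against 1.24% lower over all genes. Their median difference was -0.92. Those named for alternatively activated macrophages and dendritic cells led the list. *Chil3*, a chitinase-like protein, was at 3.73 in Th1 cells and 8.76 in Th2 cells (32.6-fold lower). The chemokine genes *Ccl17* and *Ccl22*, whose products bind CCR4, were also lower. *Ccl17* was at 4.49 in Th1 cells and 8.32 in Th2 cells (14.2-fold lower) and *Ccl22* at 9.93 in Th1 cells and 11.81 in Th2 cells (3.68-fold lower). Other genes of the same macrophage program were close on both arrays. *Arg1* was a little above the array medians, at 5.74 in Th1 cells and 5.58 in Th2 cells. *Mrc1* was below them, at 5.15 in Th1 cells and 5.06 in Th2 cells, as was *Retnla*, at 3.20 in Th1 cells and 3.14 in Th2 cells. *Stat6* itself was at 10.43 in Th1 cells and 10.40 in Th2 cells. *Socs2* (-1.02) was the only one of 8 measured SOCS genes past 2-fold, with *Cish* at a difference of -0.52 and *Socs3* at 0.38.

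The letters of the STAT6 site, TTCNNNNGAA, were in 32 of 283 windows of the genes lower in Th1 cells (11.3%), in 18 of 181 of those higher (9.94%) and in 6.41% of the windows of all genes measured. GATA letters (AGATAA) were in 34 of the 283 windows of lower genes, 18 of the 181 of higher genes and 9.66% of all. T-box letters (TCACACC) were in 4.59% of the windows of lower genes, 4.42% of those of higher genes and 3.74% of all. AP-1 letters (TGAGTCA) were in 7.42% of the windows of lower genes, 9.94% of those of higher genes and 4.78% of all. All letters were searched on both strands. In the 15 windows of the Th2 lineage genes lower in Th1 cells, STAT6 letters were in 1 and GATA letters in 2. The following windows were chosen because they hold a match. The window of *Il13* holds 1 GATA match, and those of *Ccl17* and *Il9* hold 1 STAT6 match each, in capitals in the 250 bases before their starts:
Il13: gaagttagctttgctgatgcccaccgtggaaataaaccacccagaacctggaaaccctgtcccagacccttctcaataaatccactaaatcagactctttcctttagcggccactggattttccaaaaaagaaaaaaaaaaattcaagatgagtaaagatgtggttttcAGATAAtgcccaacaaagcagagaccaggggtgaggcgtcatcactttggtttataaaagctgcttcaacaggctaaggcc
Ccl17: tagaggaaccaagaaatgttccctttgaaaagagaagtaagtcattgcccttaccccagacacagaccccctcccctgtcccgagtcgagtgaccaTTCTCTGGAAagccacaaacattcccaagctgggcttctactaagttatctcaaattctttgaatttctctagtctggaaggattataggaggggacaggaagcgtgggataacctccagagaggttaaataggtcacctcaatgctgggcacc
Il9: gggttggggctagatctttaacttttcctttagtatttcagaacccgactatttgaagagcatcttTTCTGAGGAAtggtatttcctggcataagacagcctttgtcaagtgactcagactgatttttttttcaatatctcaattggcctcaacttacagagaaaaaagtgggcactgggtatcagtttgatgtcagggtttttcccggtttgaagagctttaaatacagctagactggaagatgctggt
The GATA letters of *Il13* lie from 81 to 76 bases before the start. The STAT6 letters lie from 154 to 145 bases before it in *Ccl17* and from 184 to 175 in *Il9*. Other matches in the printed stretches were left in small letters. *Ccl17* also holds GAS and GATA letters, and *Il9* also holds AP-1 letters. Among the genes higher in Th1 cells, *Gbp5* and *Cxcl10* hold GATA letters, and *Cxcl10* and *Irgm1* AP-1 letters. The capitals thus do not show which letters are particular to a side. The stretches shown are chr11:53634703-53634952 (- strand, *Il13*), chr8:94810203-94810452 (+ strand, *Ccl17*) and chr13:56482258-56482507 (- strand, *Il9*).

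The largest difference of the comparison was in neither lineage list. *Akr1c18*, a hydroxysteroid dehydrogenase that inactivates progesterone, was at 4.69 in Th1 cells and 11.90 in Th2 cells, 148-fold lower in Th1 cells, with 11.79, 11.92 and 12.01 in the Th9 arrays. Genes of steroid and prostanoid chemistry, receptors included, were mostly within 2-fold. Of 26 prostaglandin genes, enzymes and receptors together, 5 were at least 2-fold lower and 1 higher, with a median difference of 0.02. The lower ones were *Akr1c18*, *Akr1c12*, *Hpgds* and the receptor genes *Ptger2* and *Ptgir*, and the higher one was the receptor gene *Ptger3*. Of 98 Cyp genes, 2 were lower and 1 higher, with a median of -0.02. Single members stood out, as chosen by the size of their difference. *Cyp11a1*, which makes pregnenolone from cholesterol and so opens steroid synthesis, was at 5.90 in Th1 cells and 9.41 in Th2 cells (11.4-fold lower). Its second transcript cluster, however, was at 6.12 in Th1 cells and 6.70 in Th2 cells and differed by -0.58. *Hpgds*, the haematopoietic prostaglandin D synthase, was at 4.86 in Th1 cells and 8.22 in Th2 cells (10.2-fold lower).

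The others of the 25 genes furthest below Th2 were mostly surface receptors and secreted proteins. *Mmp12*, the macrophage elastase, was at 5.24 in Th1 cells and 9.04 in Th2 cells (difference -3.81), and *Tnfsf13b*, which encodes the B cell survival factor BAFF, at 5.20 in Th1 cells and 8.73 in Th2 cells (11.6-fold lower). *Timd2* (-3.31), of the T cell immunoglobulin and mucin family, the neuropeptide gene *Nts* (-3.27), the calmodulin-binding protein gene *Nrgn* (-3.06) and *Clec7a*, the β-glucan receptor dectin-1 (-3.06), were each more than 8-fold lower, as was *P2ry1*, a receptor for ADP (-3.04). *Kcnmb1* (-2.92), the anticoagulant protein S gene *Pros1* (-2.80), *Izumo1r*, also known as folate receptor 4 (-2.77), the p38 kinase kinase *Map2k6* (-2.69), *Slc37a2* (-2.69), *Efna5* (-2.67), the sphingosine 1-phosphate receptor *S1pr3* (-2.65) and the serotonin receptor *Htr1b* (-2.61) followed. *Nts* and *Nrgn* split the Th9 arrays, with 7.71, 9.80 and 9.38 for *Nts* and 9.36, 6.26 and 6.85 for *Nrgn*, and all of these levels were above those of Th1 cells. *Trat1*, an adaptor of the T cell receptor, was at 7.60 in Th1 cells and 10.27 in Th2 cells (6.39-fold lower), the only T cell identity gene past 2-fold.

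On the other side, the gene furthest above Th2 was *Ermn*, which encodes the actin-binding protein ermin of oligodendrocytes, at 10.26 in Th1 cells and 5.53 in Th2 cells (26.5-fold). *Ermn* was not confined to Th1 cells. It was at 6.18, 8.98 and 9.69 in the Th9 arrays, so both arrays with IL-1β had it well above the Th2 level. *Ifitm3*, a membrane protein that hinders virus entry, was at 10.95 in Th1 cells and 7.50 in Th2 cells (11.0-fold). *Me1*, the cytosolic malic enzyme, was at 7.95 in Th1 cells and 4.76 in Th2 cells (9.14-fold). *Esm1*, a secreted proteoglycan, was at 7.79 in Th1 cells and 4.78 in Th2 cells (8.06-fold). *Serpinb5*, also known as maspin, was at 6.77 in Th1 cells and 3.65 in Th2 cells (8.71-fold). For *Me1*, *Esm1* and *Serpinb5* the Th2 level was below the array median. *Plac8* (2.84), *Etv5*, an ETS factor (2.76), *Tbkbp1* (2.77), the chemokine receptor gene *Cxcr1* (2.62), *B4galnt4* (2.59), the actin-bundling *Pls1* (2.58), *Sema3b* (2.57), *P2rx3*, an ATP-gated channel (2.54), *Mctp2* (2.53) and the homeobox gene *Barx1* (2.42) completed the group. The second cluster of *Etv5* was at 5.93 in Th1 cells and 5.92 in Th2 cells and differed by 0.01. Levels in the Th9 arrays were close to Th2 for most of these genes, for instance 6.78, 7.47 and 6.84 for *Etv5* and 6.67, 6.70 and 6.75 for *Barx1*.

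Cytokine genes were divided. Of 35 cytokine genes, those of the Th1 and Th2 lineages included, 7 passed 2-fold on each side. *Tnf*, the inflammatory cytokine, was at 10.76 in Th1 cells and 9.42 in Th2 cells and *Ltb*, the membrane-bound partner of lymphotoxin, at 11.48 in Th1 cells and 10.32 in Th2 cells, so together with *Lta* all 3 members of this cluster of the TNF family were higher. *Il21*, a helper cytokine for B cells, was at 7.23 in Th1 cells and 5.74 in Th2 cells but at 5.14, 7.87 and 7.79 in the Th9 arrays, where both arrays with IL-1β exceeded Th1 cells. *Il12a* (1.12) also passed 2-fold, and *Csf2* (0.9949) was just short. Lower in Th1 cells were *Penk*, the gene of the enkephalin precursor, at 9.59 in Th1 cells and 12.12 in Th2 cells (5.77-fold lower), *Il2* (-1.24) and *Tnfsf8*, the CD30 ligand (-1.15). *Il2* was below the array median in Th1 cells, at 4.63, and a little above it in Th2 cells, at 5.87. The ligand of CD40, *Cd40lg*, was higher in Th1 cells, at 9.48 in Th1 cells and 8.08 in Th2 cells.

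Cytotoxic genes did not move as one. Of 21 measured, only *Nkg7* and *Fasl* were at least 2-fold higher, against 4 that were lower. *Gzma*, the gene of the protease granzyme A, was at 9.36 in Th1 cells and 11.33 in Th2 cells (3.90-fold lower) and *Gzmd* at 4.79 in Th1 cells and 6.90 in Th2 cells (4.34-fold lower), with *Cst7* (-1.09) and *Serpinb6b* (-1.06) also past the limit. *Gzmb* (0.14) and the pore-forming *Prf1* (0.07) were within 1.5-fold. The activating receptor gene *Klrk1* was higher, at 8.42 in Th1 cells and 7.14 in Th2 cells, and *Klrc1* (0.83) was within 2-fold. All 8 measured NK cell markers were below 0, between -0.12 and -1.96. Past 2-fold were 3 of them, *Gzma*, *Klrb1c* (-1.42) and *Eomes*, against 2 of the list after log2(value + 16). *Klrb1c* was below the array median on both arrays, at 3.49 in Th1 cells and 4.91 in Th2 cells. *Klra9* (-0.30), *Klre1* (-0.25), *Styk1* (-0.22) and *Klri2* (-0.12) were within 1.5-fold, and *Ncr1*, the defining NK receptor, was at 6.59 in Th1 cells and 7.29 in Th2 cells. The summed level of this list (RMA values on the linear scale) was 1190 in Th1 cells and 3448 in Th2 cells, most of it *Gzma*, and its part in the differences of *Gzma* and *Eomes* was not tested.

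Genes of other T cell lineages were mixed. Of 15 regulatory T cell genes, 5 passed 2-fold on the lower side and 0 on the higher, 3 of them after log2(value + 16), led by *Izumo1r*, *Lrrc32*, which presents latent TGF-β (-1.46), the integrin gene *Itgae* (-1.36) and *Gpr83* (-1.12), whereas the lineage factor *Foxp3* was at 8.06 in Th1 cells and 7.86 in Th2 cells. Among 13 Th17 genes *Il21* and *Ccr6* (1.16) were higher, *Il1r1*, the IL-1 receptor, was lower at 5.38 in Th1 cells and 7.71 in Th2 cells, as was *Ahr* (-1.02), and *Il17a* was dim at 4.87 in Th1 cells and 4.68 in Th2 cells. *Il6ra* (-1.97) and *Pou2af1* (-1.81), which B cells also express, were the lower members of the follicular helper list, and *Sh2d1a* (1.14) the second higher one after *Il21*. The members of the lineage factor list past 2-fold and not yet named were *Zbtb32* (1.81), *Prdm1*, which encodes Blimp-1 (1.05), and *Batf3* (1.05) on the higher side, and *Runx1* (-1.15) on the lower side. Of the activation factors, *Jun* was at 10.23 in Th1 cells and 8.16 in Th2 cells (4.22-fold higher), and *Egr2* (-1.40) and *Dusp6*, a phosphatase of the ERK pathway (-1.71), were lower. *Fos* (-0.03), *Egr1* (0.03) and *Nr4a3* (-0.05) barely differed, and the early activation marker *Cd69* differed by 0.84. Among integrin genes, *Itgb3* was at 7.24 in Th1 cells and 9.26 in Th2 cells and *Itgax* at 5.43 in Th1 cells and 7.11 in Th2 cells, both lower in Th1 cells, and *Icam1*, the ligand of the integrin LFA-1, was higher at 10.42 in Th1 cells and 9.13 in Th2 cells.

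Receptors and ligands that answer other signals added single large differences. Among 39 cytokine receptor genes, *Lifr*, a receptor of leukemia inhibitory factor, was at 5.55 in Th1 cells and 7.79 in Th2 cells (4.73-fold lower) and *Il6ra*, the binding chain for IL-6, at 7.49 in Th1 cells and 9.46 in Th2 cells (3.91-fold lower), whereas the IL-2 receptor chain *Il2rb* (-0.13) and *Il7r* (0.89) did not pass. *Tgfbr1*, a kinase chain of the TGF-β receptor, was at 6.87 in Th1 cells and 8.02 in Th2 cells, the only one of 21 TGF-β pathway genes past 2-fold, with *Tgfbr2* at -0.05, *Smad3* at -0.87, *Acvr2a* at -0.86 and *Ltbp3* at -0.36. The chemokine genes *Cxcl3*, at 3.74 in Th1 cells and 5.90 in Th2 cells (4.46-fold lower), and *Ccl9*, at 6.89 in Th1 cells and 8.40 in Th2 cells (2.85-fold lower), joined *Ccl17* and *Ccl22* on the lower side. These myeloid-type chemokines and the CXCR3 ligands thus stood at opposite ends of the 35 ligands.

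Surface molecules of costimulation and inhibition moved little as lists, with medians of 0.06 and 0.03. *Pdcd1lg2*, which encodes PD-L2, a ligand of PD-1, was at 6.49 in Th1 cells and 8.43 in Th2 cells (3.82-fold lower), but the PD-1 gene itself, *Pdcd1*, differed by 0.33, *Ctla4* by 0.16, *Lag3* by 0.69 and *Lair1*, a collagen receptor, by 0.87. *Cd80*, a ligand of CD28, was at 11.19 in Th1 cells and 10.15 in Th2 cells and its relative *Cd86* at 7.29 in Th1 cells and 7.28 in Th2 cells, so only the first passed 2-fold. *Cd226*, an activating receptor, was at 6.94 in Th1 cells and 8.05 in Th2 cells. The 17 naive and memory genes had a median of -0.13 and none passed 2-fold, with *Klf2* (-0.94) and *Il7r* at the ends and *Bach2* (-0.74) and *Dapl1* (-0.45) next in size. In the unfolded protein response list *Derl3* (-1.65), also a plasma cell marker, was the only one of 19 genes past 2-fold, and the median was -0.21. *Xbp1*, the factor that plasma cells and secretory cells need, was just short of the limit at 10.001 in Th1 cells and 11.000 in Th2 cells, and *Ern1* (0.54) and *Creld2* (-0.44) were within 1.5-fold.

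**Figure D3:**
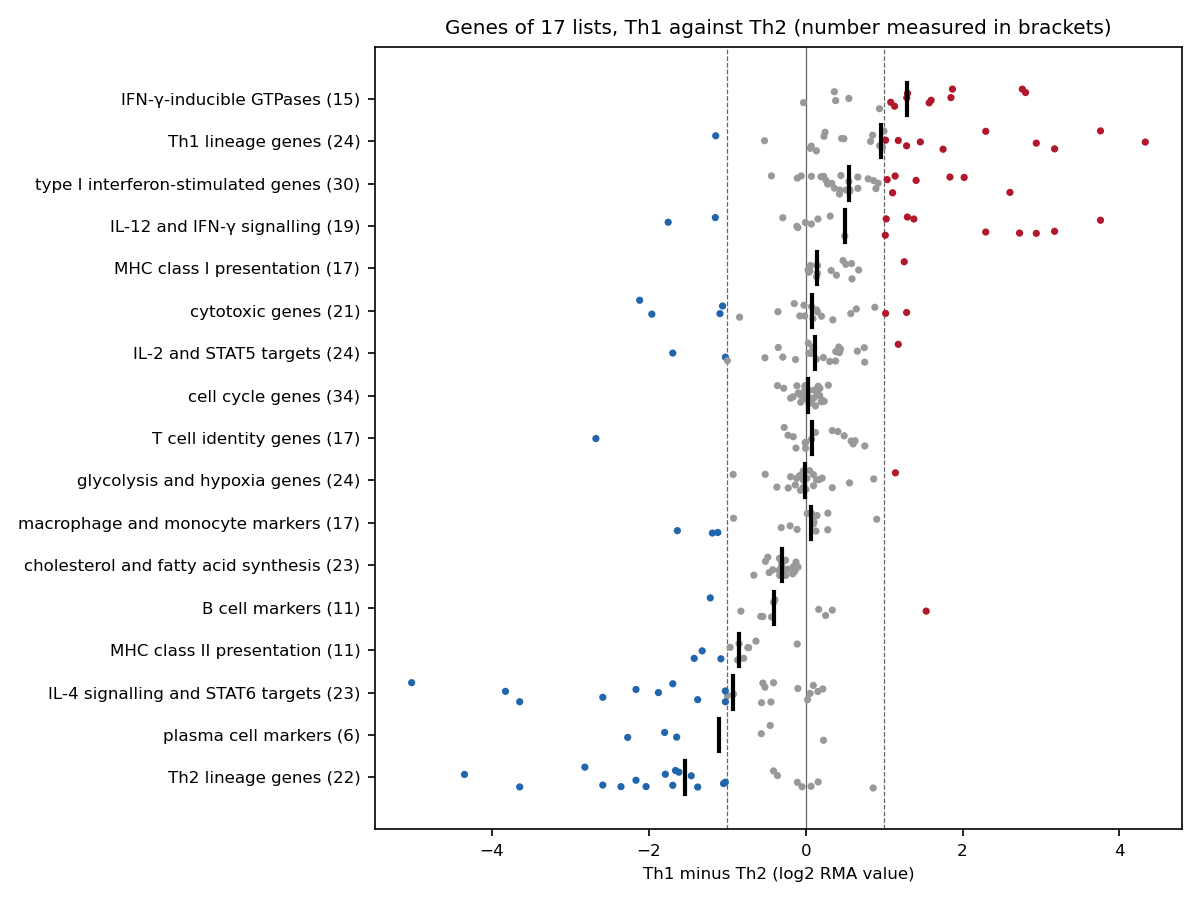
Difference between Th1 and Th2 cells (horizontal axis, log2 RMA value) for each measured gene of 17 lists (rows, number of genes in brackets), with black bars at the list medians, dashed lines at 2-fold, red points at least 2-fold higher and blue points at least 2-fold lower in Th1 cells. The medians run from 1.29 for the IFN-γ-inducible GTPases to -1.54 for the Th2 lineage genes, and the cell cycle genes stay within 0.36 of 0.

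Several programs showed little or no difference. None of 34 cell cycle genes passed 1.5-fold, their differences ran from -0.36 to 0.29, and the median was 0.02. *Kif23* (-0.36), *Rrm2* (0.29), *Ccnb2* (-0.28) and *Cdc6* (0.24) were the furthest from 0. *Mki67*, the proliferation marker, was at 11.59 in Th1 cells and 11.70 in Th2 cells. With IL-2 in both media, 24 genes of the IL-2 and STAT5 program had a median difference of 0.12, with *Il2ra* at 13.07 in Th1 cells and 12.76 in Th2 cells and *Myc* at 11.34 in Th1 cells and 10.90 in Th2 cells, and those past 2-fold (*Lta* on the higher side, *Il4ra* and *Socs2* on the lower) also stood in other lists. *Cd3e* was at 12.49 in Th1 cells and 12.49 in Th2 cells and *Cd4* at 12.07 in Th1 cells and 12.07 in Th2 cells, the markers that define the cells, and the median of 17 T cell identity genes was 0.08. *Fyn* (0.75), *Themis* (0.63) and *Bcl11b* (0.61) were the furthest from 0 in that list after *Trat1*. In glycolysis and hypoxia, *Hk2*, the hexokinase of activated cells, was the only one of 24 genes past 2-fold, at 10.31 in Th1 cells and 9.17 in Th2 cells, followed by *Aldoc* (-0.92), *Hif1a* (0.87) and *Slc2a1* (0.56). All 23 genes of cholesterol and fatty acid synthesis were below 0, but only *Nsdhl* passed 1.5-fold (-0.66), with *Dhcr7* (-0.51), *Scd1* (-0.48) and *Insig1* (-0.47) next, and the median was -0.30. Amino acid transport and ATF4 targets leaned the other way by less, with 19 of 24 above 0 on the deposited scale, 14 after centring on the T cell identity genes, a median of 0.18 and *Cth* (-1.003) past 2-fold on the lower side. *Slc7a3* (0.48), *Slc7a5* (0.43) and *Mthfd2* (0.43) were the highest of that list.

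MHC class II and plasma cell genes were lower in Th1 cells as well. All 11 measured MHC class II genes were below 0 in Th1 cells, 10 of them by at least 1.5-fold and 3 by at least 2-fold, against 3.29% of all genes at 1.5-fold. *H2-Eb2* was at 8.30 in Th1 cells and 9.72 in Th2 cells, *Ciita*, the transactivator of MHC class II, at 8.71 in Th1 cells and 10.03 in Th2 cells and *H2-DMa* at 9.78 in Th1 cells and 10.86 in Th2 cells, with *H2-DMb1* (-0.96) just inside 2-fold. The summed level of the list was 12997 in Th1 cells and 21842 in Th2 cells. Plasma cell markers had 3 of 6 at least 2-fold lower, namely *Jchain*, which joins antibody chains, at 7.03 in Th1 cells and 9.30 in Th2 cells, *Mzb1* at 8.48 in Th1 cells and 10.28 in Th2 cells and *Derl3* at 6.76 in Th1 cells and 8.40 in Th2 cells, while *Tnfrsf13b* (-0.45), *Sdc1* (-0.57) and *Tnfrsf17* (0.23) did not pass. Their summed level was 948 in Th1 cells and 2689 in Th2 cells, and between 736 and 3328 in the Th9 arrays. Of 22 immunoglobulin segments, 18 were at least 2-fold lower in Th1 cells, against 1.24% of all genes, with a median difference of -1.34. Their median level was 9.49 in Th1 cells, 10.74 in Th2 cells and 8.31, 11.06 and 8.78 in the Th9 arrays. Low levels were thus not particular to Th1 cells, as both arrays with TGF-β lay below them. In bulk RNA, fewer cells of a type and less RNA per cell cannot be told apart.

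B cell and macrophage markers gave no single direction. Of 11 B cell markers, *Cd79b* was lower, at 10.56 in Th1 cells and 11.78 in Th2 cells, and *Cr2*, the complement receptor, higher, at 7.04 in Th1 cells and 5.51 in Th2 cells. *Blk* (-0.83), *Cd79a* (-0.57), *Fcer2a* (-0.55), *Ms4a1* (-0.44), *Pax5* (-0.41), *Cd22* (-0.39), *Ebf1* (0.17), *Bank1* (0.25) and *Fcrla* (0.34) were within 2-fold. The lowest level of the list was 7.04 in Th1 cells and 5.51 in Th2 cells, above the array median in both, and its summed level was 12304 in Th1 cells and 17686 in Th2 cells. Of 17 macrophage and monocyte markers, 3 were at least 2-fold lower, *Lyz2*, which encodes lysozyme, at 6.43 in Th1 cells and 8.07 in Th2 cells, *Cd68* at 8.24 in Th1 cells and 9.36 in Th2 cells and *Ms4a7* at 4.39 in Th1 cells and 5.58 in Th2 cells. *Adgre1*, which encodes F4/80, was at 4.97 in Th1 cells and 5.89 in Th2 cells and *Csf1r* at 6.15 in Th1 cells and 6.46 in Th2 cells, and *Apoe*, at 7.83 in Th1 cells and 6.93 in Th2 cells, was the only member at least 1.5-fold higher. The other 11 (*C1qa*, *C1qb*, *C1qc*, *Cd14*, *Fcgr1*, *Marco*, *Mertk*, *Mrc1*, *Msr1*, *Trem2* and *Vcam1*) differed by less than 1.5-fold. Summed, the macrophage list came to 1256 in Th1 cells and 1723 in Th2 cells. *Chil3*, *Mmp12*, *Ccl17*, *Ccl22*, *Clec7a*, *Tnfsf13b* and *Itgax* are known from macrophages and dendritic cells, and the part of such cells in their differences was not tested.

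Markers of the remaining cell types also differed in both directions. Of 12 dendritic cell markers, *Itgax* was lower and *Batf3* higher, whereas *Flt3* (0.66), *Zbtb46* (0.64), *Bst2* (0.67), *Fscn1* (0.39), *Tlr3* (0.36), *Cd209a* (0.12), *Xcr1* (0.12), *Clec10a* (0.03), *Siglech* (-0.12) and *Ccr7* (-0.16) were within 2-fold, and the summed level was 5272 in Th1 cells and 4481 in Th2 cells. *Mmp8*, at 4.96 in Th1 cells and 6.83 in Th2 cells, was the only one of 13 neutrophil markers past 2-fold, with *S100a8* (-0.92), *S100a9* (-0.53) and *Ly6g* (0.59) dim in both and *Retnlg* (-0.68) and *Mpo* (-0.66) within 2-fold. *Ltf* (-0.17), *Camp* (0.21), *Ngp* (0.001), *Csf3r* (-0.06), *Mmp9* (0.19), *Cxcr2* (0.50) and *Elane* (-0.13) were within 1.5-fold. Of 13 mast cell and basophil markers, *Kit* was higher, at 8.07 in Th1 cells and 6.72 in Th2 cells, and *Cpa3* lower, at 7.95 in Th1 cells and 9.27 in Th2 cells, while the defining basophil protease gene *Mcpt8* (-0.57), *Gata2* (-0.20), *Fcer1a* (-0.22) and *Ms4a2* (0.26) were within 2-fold, as were *Cma1* (-0.68), *Tpsb2* (0.65), *Cd200r3* (-0.35), *Hdc* (-0.34), *Prss34* (0.16), *Mcpt4* (0.15) and *Mrgprb2* (0.06). *Cd8a* was at 8.42 in Th1 cells and 7.96 in Th2 cells and *Cd8b1* at 9.32 in Th1 cells and 9.26 in Th2 cells. No marker of any list is listed at 0, since RMA gives each transcript cluster a level. The platelet and erythroid genes *Ppbp* (-0.56), *Klf1* (-0.21), *Itga2b* (-0.05), *Gp9* (-0.02) and *Pf4* (0.15) were within 1.5-fold, as was *Sox13* (0.20), a gene of γδ T cells.

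**Figure D4:**
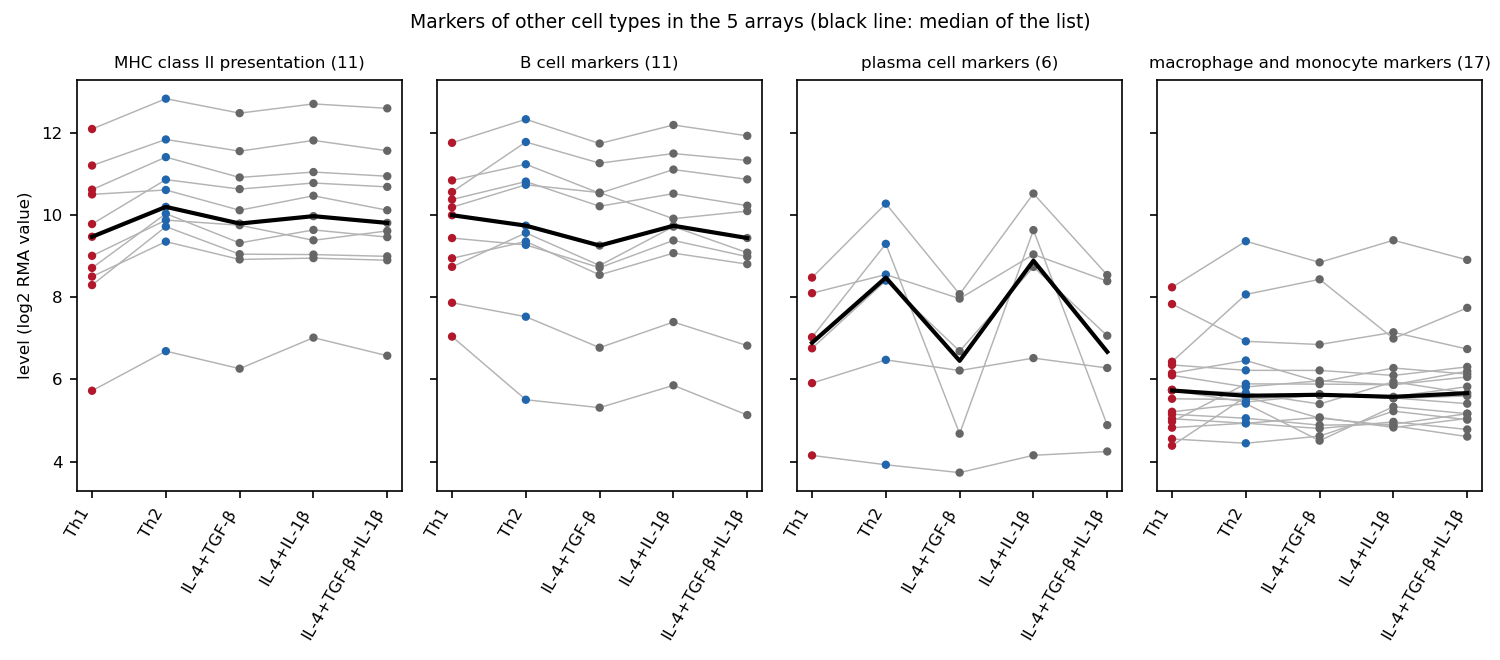
Level (vertical axis, log2 RMA value) of each measured marker of 4 lists (MHC class II, B cell, plasma cell, macrophage and monocyte) in the Th1 array (red), the Th2 array (blue) and the 3 Th9 arrays (grey), with thin lines joining the points of 1 gene and a thick line at the list median. MHC class II genes are lower in Th1 than in Th2 cells throughout, the plasma cell markers are also low in both arrays with TGF-β, and the macrophage median is level.

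Some of the genes that differed were neighbours on the chromosome. In the order of the RefSeq annotation over 21992 genes, 45 of the 177 placed genes that were 2-fold higher in Th1 cells (25.4%) stood directly beside another such gene, in 18 runs, and 32 of the 274 lower ones (11.7%) did, in 11 runs, 3 of them of immunoglobulin segments. The runs on the higher side held *Il18r1* with *Il18rap*, *Cxcl10* with *Cxcl11*, *Ltb* with *Tnf* and *Lta*, *Gbp5* with *Gbp7* and *Gbp3*, *Gbp4* with *Gbp10*, *Ly6i* with *Ly6c1* and *Ly6c2*, *Oasl2* with *Oasl1*, and *Ifi214* with *Ifi213*, *Ifi209* and *Ifi208*. Most of these are families of copied genes, whose probes can share sequence. Not all neighbours are related in that way. *Tbx21* stood beside *Tbkbp1*, which encodes a TBK1-binding protein and was at 9.45 in Th1 cells and 6.68 in Th2 cells (6.82-fold higher), and *Furin* beside *Fes*, a tyrosine kinase gene at 8.34 in Th1 cells and 6.91 in Th2 cells. On the lower side *Il4* and *Il13* stood with *Kif3a*, a kinesin gene, at 7.10 in Th1 cells and 8.40 in Th2 cells (2.47-fold lower). *Il4ra* stood beside *Nsmce1* (-1.17), *Ifngr2* beside *Tmem50b* (-1.001), *Timd2* beside *Havcr1*, which encodes TIM-1 (-1.77), and *Izumo1r* beside *Gpr83*. The membrane protein gene *Tmem176a* was at 6.92 in Th1 cells and 8.52 in Th2 cells, and *Tmem176b* beside it at 7.93 in Th1 cells and 9.22 in Th2 cells. These neighbours were picked by their place and not by the rule for named genes.

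**Figure D5:**
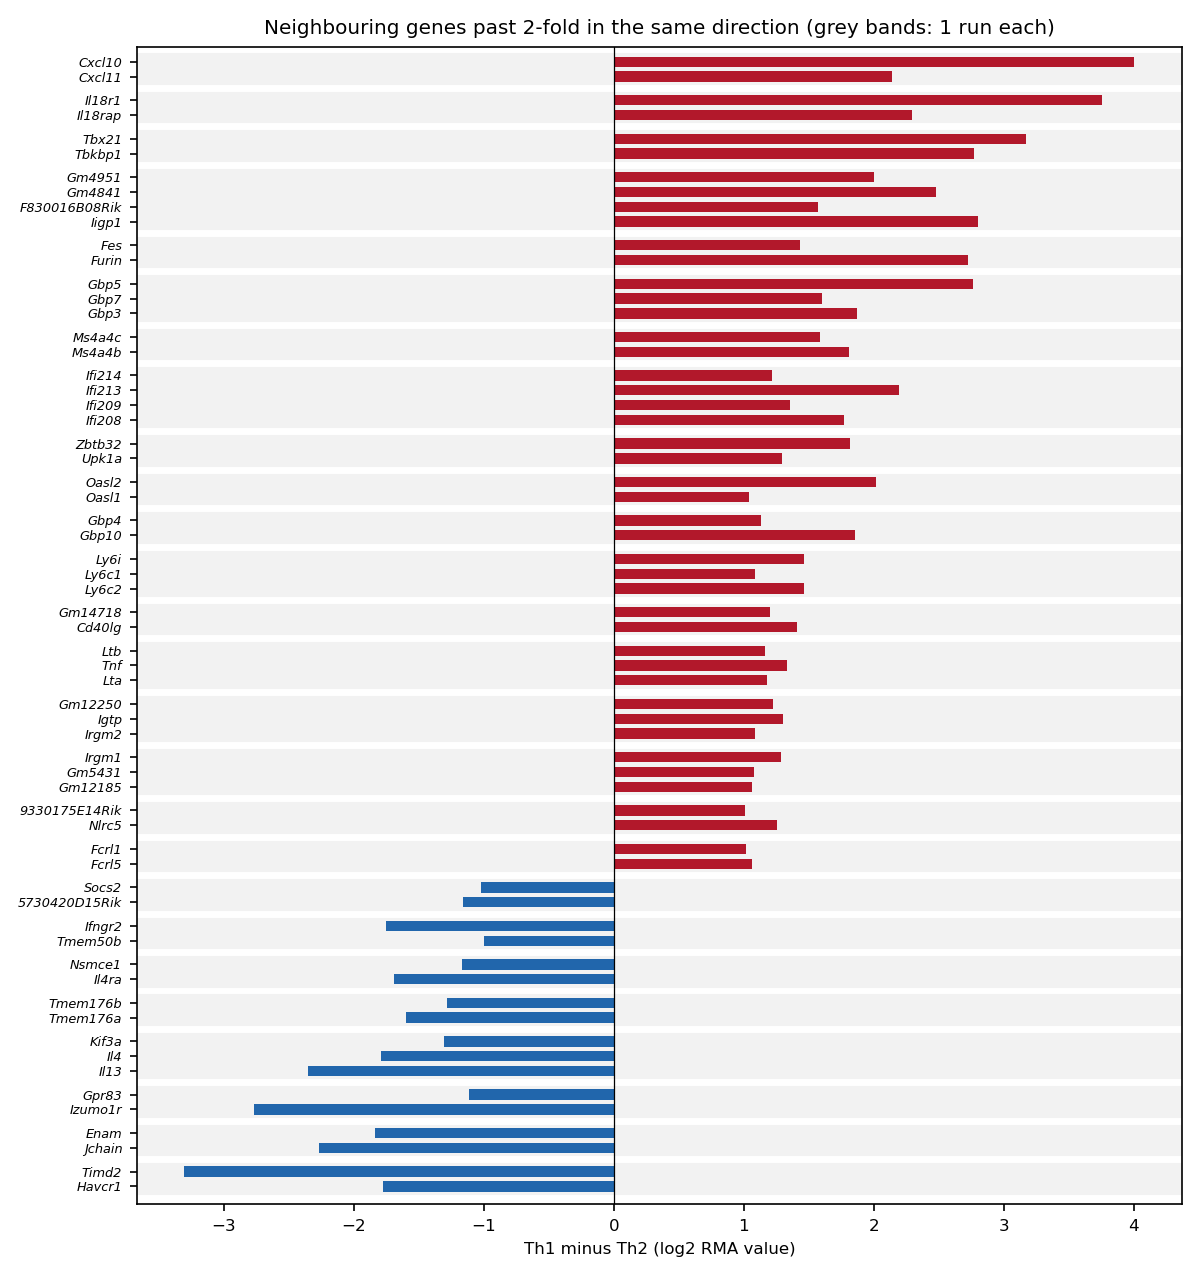
Difference between Th1 and Th2 cells (horizontal axis, log2 RMA value) for genes that passed 2-fold in the same direction as the next gene of the annotation, 1 bar per gene and 1 grey band per run, without the 3 runs of immunoglobulin segments. Red bars are higher and blue bars lower in Th1 cells, and the bands run from Cxcl10 and Cxcl11 at the top to Timd2 and Havcr1 at the bottom.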

How the data were processed

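RNA of the 5 cultures was hybridised to Affymetrix Mouse Gene 2.0 ST arrays, 1 per condition. The authors made the values with RMA, and the submitters' processing notes name Affymetrix Expression Console, with no version stated. The deposited values are log2 and were used as they are. Depth has no meaning for an array, and the number of arrays limits the precision. No genome build of the array is stated in the sources.

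Symbols came from the platform annotation, and 23329 of the 23525 named transcript clusters have an Entrez ID in the RefSeq table. Where a gene has more than 1 cluster, the brightest by mean over the 5 arrays was taken. Differences are Th1 minus Th2, called at 2-fold. Counts, medians of 43 gene lists (646 of 713 different genes measured), neighbours by RefSeq order and motif searches were computed in Python 3.11.15 with pandas 2.3.3. No test was run. The counting was tested on simulated arrays. The members and lists were chosen with earlier results of these data known.

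Named are the 25 genes highest and the 25 lowest by difference whose brighter value exceeds the array median (gene models, olfactory and vomeronasal receptors, small RNAs and antigen receptor segments left out), all Th1 and Th2 lineage genes, the 4 largest differences of other lists and the markers of other cells. Other list members named were chosen after their values were seen, as were neighbours. Alternatives were other centring and scaling, log2(value + 16) on the linear values, a filter on low levels, other thresholds, all clusters, genes as means over clusters, and means in place of medians.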

Additional observations from a re-analysis of the deposited data

How the results depend on the processing

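Counts over all genes and over all named transcript clusters past 2-fold stayed within 1.5 times the reported ones when arrays were centred on their 75th percentile or their median, under repeated quantile normalization, centring on the T cell identity genes, log2(value + 16), the filter on low levels, leaving out gene models, receptor segments and markers of other cells, and genes as means over clusters. Centring on the T cell identity genes, which shifts every difference by -0.11, moved the gene counts most toward the lower side, to 143 higher and 338 lower, so that 29.7% in place of 39.3% of the genes past 2-fold were higher in Th1 cells. A threshold of 1.5-fold gave 566 genes higher and 730 lower and 592 transcript clusters higher and 756 lower. At 4-fold these were 34 and 56 for both. Over all transcript clusters, named or not, 326 were higher and 702 lower. Of the lists with at least 3 genes past 2-fold on a side, the type I interferon-stimulated genes (3 in place of 7 higher) and the regulatory T cell genes (3 in place of 5 lower) moved by more than 1.5 times under a scaling, both with log2(value + 16). The medians of the Th1 and Th2 lineage lists moved by less than 0.25 under every alternative run. Of 258 genes named by rule, 121 passed 2-fold, and 113 of these still did after log2(value + 16), 119 after centring on the T cell identity genes and 119 as means over clusters, where *Etv5* came to 1.38, *Gata3* to -1.94 and *Cyp11a1* to -2.04. No gene past 2-fold changed sign. No replicate could be left out, and no paired analysis was possible because each condition has 1 array and no test was run.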

Other observations

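Purinergic and prostanoid receptors, picked after their values were seen, differed in both directions. Of 16 P2 receptor genes, 3 were at least 2-fold higher, 1 lower and 12 within 2-fold, with a median difference of -0.04. Of the 26 prostaglandin genes, which hold enzymes as well as receptors, 20 were within 2-fold. Beside *P2rx3* and *P2ry1*, *P2ry14*, a receptor for UDP-glucose, was at 8.69 in Th1 cells and 7.28 in Th2 cells (2.65-fold higher) and *P2rx7*, the ATP-gated channel of macrophages and T cells, at 9.03 in Th1 cells and 7.99 in Th2 cells. *P2ry10* was at 9.15 in Th1 cells and 10.14 in Th2 cells. The prostaglandin E2 receptor genes parted. *Ptger3* was at 7.82 in Th1 cells and 6.40 in Th2 cells (2.67-fold higher) and *Ptger4* at 9.57 in Th1 cells and 8.91 in Th2 cells, while *Ptger2* was at 6.37 in Th1 cells and 7.58 in Th2 cells (2.32-fold lower), and the prostacyclin receptor gene *Ptgir* was at 6.86 in Th1 cells and 8.55 in Th2 cells (3.23-fold lower). *Akr1c12*, a close relative of *Akr1c18*, was dim, at 3.39 in Th1 cells and 4.81 in Th2 cells. Of 20 semaphorin genes 17 were within 2-fold, *Sema3b* was higher, and *Sema4b*, at 8.07 in Th1 cells and 10.19 in Th2 cells (4.37-fold lower), and *Sema3e*, at 4.50 in Th1 cells and 5.81 in Th2 cells (2.48-fold lower), were lower. *Il5ra*, a chain of the IL-5 receptor, was at 5.999 in Th1 cells and 8.27 in Th2 cells (4.83-fold lower), the sialyltransferase gene *St6gal1* at 7.81 in Th1 cells and 9.92 in Th2 cells (4.30-fold lower) and *Rxra*, a partner of nuclear receptors, at 7.18 in Th1 cells and 9.17 in Th2 cells (3.98-fold lower).

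The Ifi200 family, DNA-binding proteins that interferons induce, had 5 of 11 members at least 2-fold higher in Th1 cells and 0 lower, with *Ifi213* at 6.12 in Th1 cells and 3.92 in Th2 cells (4.59-fold) and *Ifi209*, the brightest of these, at 9.41 in Th1 cells and 8.06 in Th2 cells. The Ms4a membrane proteins had 3 of 20 higher, *Ms4a4b* at 7.54 in Th1 cells and 5.73 in Th2 cells, *Ms4a4c* at 8.12 in Th1 cells and 6.53 in Th2 cells and *Ms4a6b* at 9.96 in Th1 cells and 8.48 in Th2 cells, and *Ms4a7* lower. Of 60 ribosomal protein genes, 73 small nucleolar RNA genes and 370 zinc finger genes, 0 passed 2-fold in either direction. Over all genes 0.802% were higher and 1.24% lower, and at such shares 0 among 60 or 73 genes is not a result about them.

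Of 483 miRNA genes, 1 was at least 2-fold higher and 1 lower, against 0.802% higher and 1.24% lower over all genes. *Mir29a* was below the array median on every array, at 5.30 in Th1 cells and 3.55 in Th2 cells, with 3.80, 4.56 and 4.66 in the Th9 arrays. *Mir5123* was at 6.65 in Th1 cells and 8.06 in Th2 cells. The array reads the locus and not the mature strand. In mouse T cells miR-29 is known to target the messengers of T-bet and IFN-γ. The mature sequences are those of RefSeq (GRCm38.p6), at chr6:31062673-31062694 (- strand, mmu-miR-29a-3p), chr6:31062711-31062732 (- strand, mmu-miR-29a-5p), chr4:40850057-40850080 (- strand, mmu-miR-5123), with the seed, bases 2 to 8, in capitals:
mmu-miR-29a-3p: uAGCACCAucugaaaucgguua
mmu-miR-29a-5p: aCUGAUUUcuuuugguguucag
mmu-miR-5123: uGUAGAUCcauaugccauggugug

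Transcript clusters without exactly 1 symbol numbered 17820, of which 143 were at least 2-fold higher in Th1 cells and 416 lower. Among 5333 unnamed clusters with IDs below the first named one, 88 were higher and 223 lower and the median difference was -0.09. They were not analysed further here.

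Of 27 genes past 2-fold that have more than 1 transcript cluster, the 27 further clusters had the same sign in 21 and passed 2-fold in the same direction in 3, and 13 were below the median of both arrays.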
